A study of Arabidopsis thaliana with 4 samples.

Results

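Plates TA01 to TA19 open the numbering of an Arabidopsis thaliana tiling array on which an immunoprecipitate of chromatin with trimethylated lysine 9 of histone H3 (H3K9me3) was hybridised together with the input. A tile is an array feature named by its plate and well, so that TA07H01 is the first well of row H on plate TA07. The 19 plates carry 1821 tile identifiers, of which 1820 have a score, out of 21716 scored tiles on 231 plates in all. The unscored tile is TA10H11, and wells TA17C03, TA17E06 and TA19D04 have no identifier in the table. The stretch was chosen by plate number, but its end was selected on measured scores: it stops where the plates with low medians, TA20 to TA28, begin. Its level against the rest of the array is therefore a description and carries no test.

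All arrays belong to 1 group: untreated seedlings of ecotype Col-0, a common laboratory strain, 10 days old by their labels and grown in liquid medium, with an H3K9me3 immunoprecipitate in 1 dye and the input of the same preparation in the other. There were 2 preparations of chromatin, called I and II in the labels, each with a dye-swap pair of arrays, and whether they came from separate cultures is not stated. The scores of both arrays of a pair were equal at all 1820 tiles in both preparations, so each pair counts as 1 replicate (n = 2 preparations, 4 arrays). Whole seedlings were used, so the values average over their cell types.

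H3K9me3 is a methyl mark placed on a histone tail by SET-domain methyltransferases. In animals it is best known from condensed chromatin, where it is bound by HP1 proteins. In Arabidopsis the dimethylated form, H3K9me2, marks silent transposons together with DNA methylation, while the trimethylated form has been described mainly over genes. An immunoprecipitate compared with its input shows which stretches of DNA carry more or less of the mark than the typical stretch.

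Each score given here has had the preparation's median over all scored tiles of the array subtracted, in score units, and the mean score is the average of both preparations. The deposited medians that were subtracted were -1.09 in preparation I and -1.35 in preparation II. The log base of the score and its direction, immunoprecipitate over input or input over immunoprecipitate, are not given in the sources used here. "High" and "low" therefore refer to the score and not to the amount of the mark, and no fold changes are given. The identifiers of these plates have no match in the RefSeq genes of assembly TAIR10.1, so no gene, genome position or sequence is attached to a tile.

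On plates TA01 to TA19 most tiles lay close to the array's median, with a long tail of high scores. Preparation I had a median of 0.12 and preparation II one of 0.11, against -0.01 in both preparations over the other 19896 tiles. The middle of the distribution of the mean score ran from -0.21 at the 25th percentile to 0.61 at the 75th, against -0.32 and 0.46 over the other tiles. The 90th percentile was 1.199 on these plates and 1.099 on the others, while the 99th percentile was 1.91 and 1.95. Against the other tiles pooled, the scores thus sat somewhat higher in the body of the distribution and not at its far end. The spread between tiles was alike, with an SD of 0.63 on these plates and 0.64 on the others. The pooled tiles include blocks of plates with low medians, such as -0.44 on TA37 to TA51. Among this stretch and the 10 other blocks of the array, its median of 0.105 ranked 2nd, below 0.17 on TB50 to TB99.

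A mean score of 1 or more was found at 245 of the 1820 tiles, or 13.5%, beside 11.9% of all tiles on the array. That share ranked 3rd among the blocks, after 17.9% on TB50 to TB99 and 15.6% on TC00 to TC16. A mean score of -1 or less was found at 8 tiles of plates TA01 to TA19, or 0.44%, beside 0.327% of all tiles. With limma, fitted on all tiles with a Benjamini-Hochberg adjusted p under 0.05, 683 of these tiles scored above the median and 332 below it. These are 37.5% and 18.2% of the plates' tiles, where 31.6% and 25.0% of all tiles on the array were called. The fit gave every tile the same spread, an SD of 0.20 between preparations, so a call amounts to a mean score of at least 0.31 in size. The remaining 805 tiles were not called. The choice of the stretch used these same scores, so nothing is read from the calls beyond their number.

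**Figure D1:**
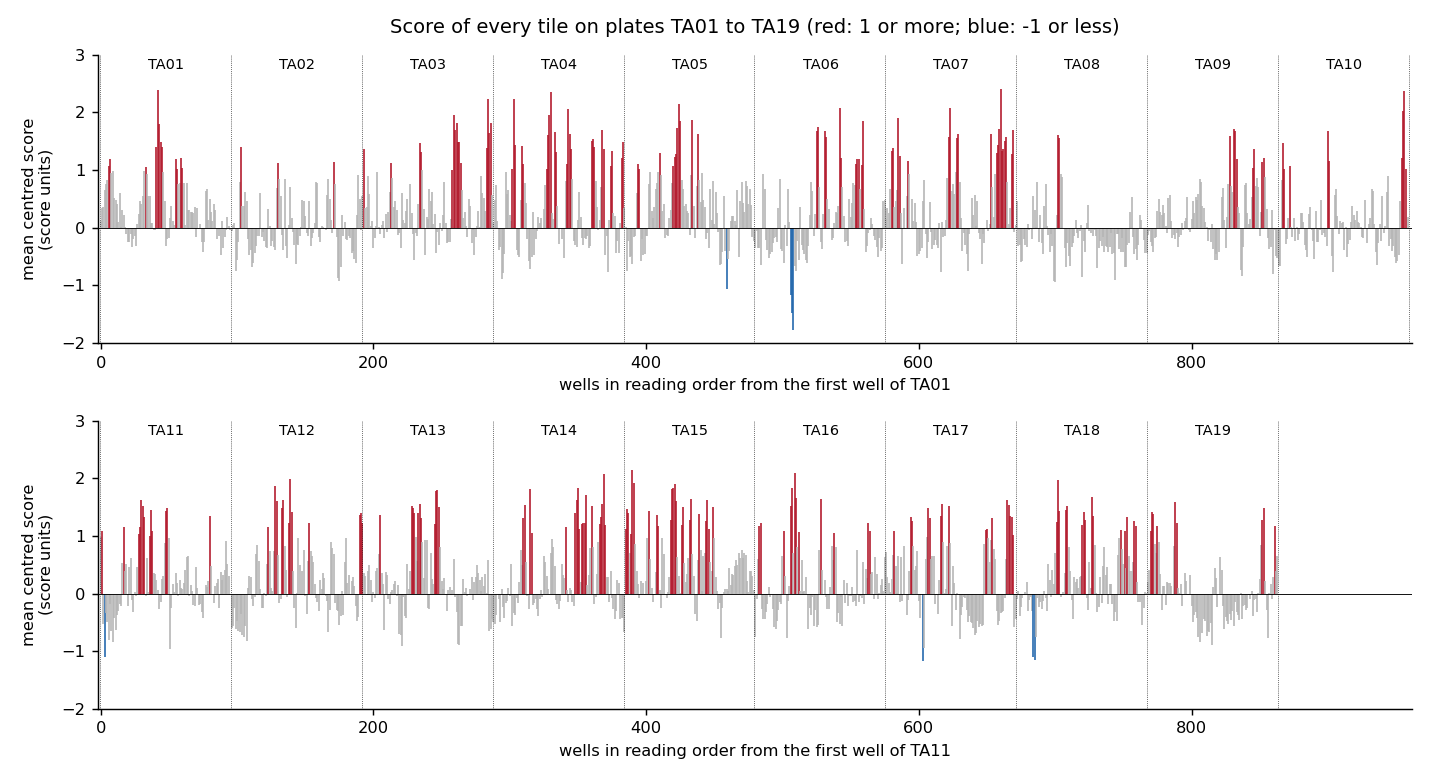
Mean centred score of each of the 1820 tiles (vertical lines, in score units), in reading order of the wells, with plates TA01 to TA10 in the upper panel and TA11 to TA19 in the lower. The 245 tiles at 1 or more, in red, lie on every plate, alone or in short groups, and the 8 tiles at -1 or less, in blue, lie on 5 plates.

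The plates differed among themselves. Plate TA15 had the highest median, 0.46, followed by TA05 with 0.30 and TA01 with 0.28. The lowest medians were those of TA08, at -0.21, TA02, at -0.10, and TA06, at -0.07. On TA15 the preparations had medians of 0.47 (I) and 0.43 (II), and on TA08 it was -0.25 and -0.19. Both preparations thus placed these plates on the same side of the array's median. The sign of the plate median was the same in both preparations on all 19 plates, positive on 14 and negative on 5. Some of these medians were close to the array's median. On TA10 they were -0.030 (I) and -0.006 (II), with 0.011 for the mean score. On TA16 they were 0.036 and 0.023, with -0.019 for the mean score.

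The number of tiles at 1 or more ranged from 2 to 24 per plate. Plate TA04 held 24 such tiles, TA15 held 23 and TA07 held 20. Plate TA08 held 2 and TA02 held 3, and the middle plate held 12. A plate with many high tiles did not need a high median: TA04 had a median of 0.18 and the widest spread of the 19 plates, with an SD of 0.78 across its tiles, whereas TA05 had a median of 0.30 with 11 high tiles. Within these 19 plates 6.33% of the variance between tiles lay between plates, 1.74% between well rows and 0.815% between well columns. Row D had the highest row median, at 0.26, and row F the lowest, at 0.03. The part of well position in these differences was not tested.

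**Figure D2:**
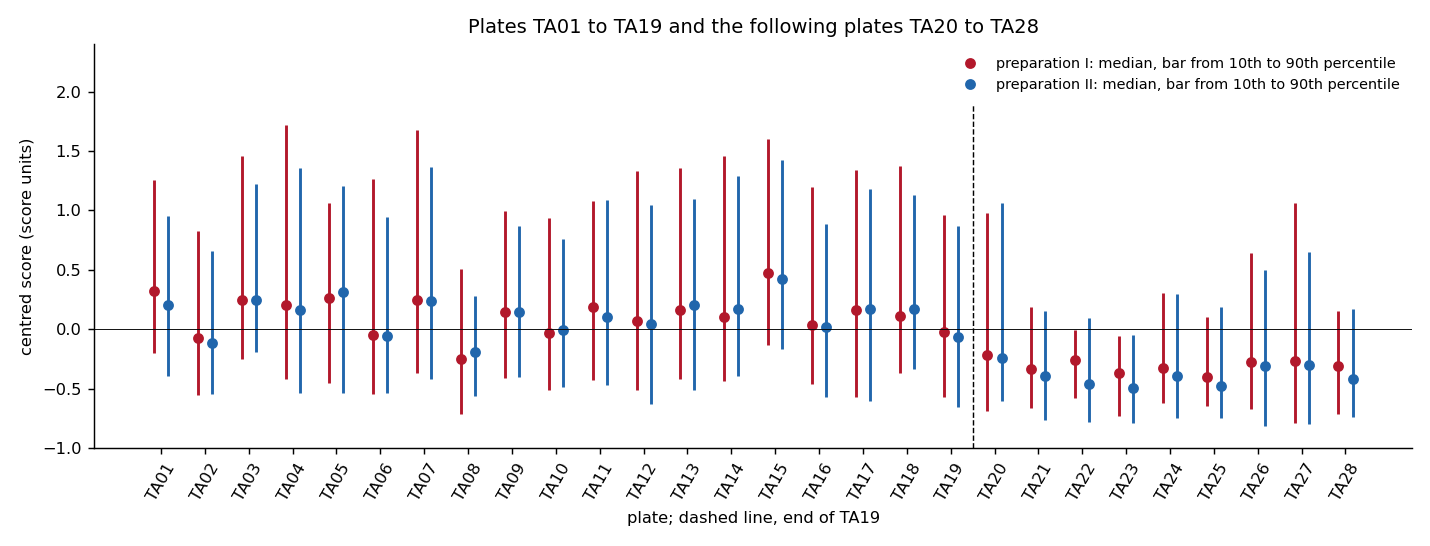
Median (points) and range from the 10th to the 90th percentile (bars) of the centred score, in score units, on each plate, in preparation I (red) and preparation II (blue). The medians of plates TA01 to TA19 run from -0.21 to 0.46 in the mean of both preparations, and those of TA20 to TA28, right of the dashed line, all lie below -0.2.

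High tiles stood in short runs of consecutive wells. The 245 tiles at 1 or more formed 111 runs with a mean length of 2.21 tiles, where the other tiles of the array formed 1143 runs with a mean length of 2.05. Runs of 1 tile made up 36 of the 111 (32.4%), against 46.7% of the runs elsewhere, and 45 runs held 2 tiles. Of all high tiles on these plates 48.6% lay in the 30 runs of at least 3 tiles, against 49.5% elsewhere. After a high tile the next tile was also high in 54.9% of cases on these plates, against 51.4% elsewhere. After any other tile it was high in 7.07% of cases, against 6.48% elsewhere. By mean run length these plates ranked 1st among the blocks, with TA52 to TA59 close at 2.18 and TC00 to TC16 at 2.15. Runs of 1 tile made up 36.4% of the runs on TA52 to TA59 and 58.1% on TC00 to TC16. The end of the stretch was selected on these scores, so the differences carry no test.

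Longer runs reached higher scores. The top tile averaged 1.84 ± 0.35 in the 30 runs of 3 or more tiles and 1.29 ± 0.21 in the 36 runs of 1 tile (SD across runs). A longer run offers more tiles from which the top is taken, so the values describe the runs and do not compare equal draws. Between runs lay a median of 9 wells without a high tile, and the 25th percentile of these gaps was 4 wells. The longest gap ran for 124 wells, from TA08C09 to TA09E12. Its tiles had a median of -0.12, and the highest of them reached 0.94.

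The longest run held 8 tiles, TA07G10 to TA07H05. Preparation I averaged 1.74 ± 0.38 over it (SD across tiles) and preparation II 1.42 ± 0.37, and all 8 tiles were at 1 or more in both. The peak was TA07H01, the highest tile of these plates, with 2.64 in I and 2.18 in II, a mean of 2.41 ± 0.33 (SD, n = 2). On the near side, that is in the earlier wells, the mean score climbed through 0.19 at TA07G08, 0.93 at TA07G09, 1.30 at TA07G10 and 1.71 at TA07G12. On the far side it stayed between 1.34 and 1.57 from TA07H02 to TA07H05, and was then 0.80 at TA07H06 and 0.06 at TA07H07. The run thus climbed tile by tile to its maximum, and on the far side held a lower level before it fell. In preparation II the tile before the peak, TA07G12, already had 1.77.

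The next longest run held 7 tiles, TA03F07 to TA03G01, and was shaped differently. Its maximum came early, at TA03F08, with 2.11 in preparation I and 1.80 in preparation II. The tile before the run, TA03F06, had 0.03 and 0.26, so the near edge was steep. From TA03F10, with a mean of 1.81, the scores declined to 1.49 at TA03F12, 1.13 at TA03G01, 0.66 at TA03G02 and 0.17 at TA03G03. The third run, TA05D01 to TA05D06, had its maximum late. It climbed from 1.06 at TA05D01 to 1.28 at TA05D03, 1.73 at TA05D04 and 2.14 at TA05D05, and stood at 1.85 on its last tile, TA05D06. After the run the mean score was 0.82 at TA05D07 and 0.67 at TA05D08. In that run the tile TA05D01 had 0.90 in preparation I and 1.23 in preparation II, the only tile of the 6 that was below 1 in a preparation.

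The other tiles among the 5 highest also had high neighbours, with an exception on 1 side. TA01D07 had 2.36 in I and 2.41 in II, a mean of 2.39 ± 0.034 (SD, n = 2), between TA01D06 with a mean of 1.40 and TA01D08 with 1.80. TA10H09 had 2.46 and 2.30, between TA10H08 with a mean of 2.02 and TA10H10 with 1.01. TA03H09 had 2.53 and 1.95, between TA03H08 with a mean of 1.38 and TA03H10 with 1.65. TA04D07 had 2.53 and 2.18 and stood at a sharp edge: TA04D06 before it had a mean of 1.95, and TA04D08 after it had 0.26. All 5 highest tiles were at 1.9 or more in both preparations.

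The average profile around the top of a high stretch was read in the preparation that had not been used to find it. Runs at 1 or more were located in preparation I, and the scores of preparation II were averaged around the top tile of each of these 131 runs. The top tile had 1.25 ± 0.45 (SD across runs) in preparation II. Its neighbours had 0.71 ± 0.51 on the near side and 0.76 ± 0.53 on the far side, and the tiles 2 steps away had 0.24 ± 0.56 and 0.34 ± 0.56. With 101 runs located in preparation II and read in preparation I, the top tile had 1.68 ± 0.43, its neighbours 0.97 ± 0.60 and 1.04 ± 0.56, and the tiles 2 steps away 0.37 ± 0.61 and 0.45 ± 0.64. At 3 steps the averages lay between 0.18 and 0.35 in both readings, near the mean score of all tiles of these plates, 0.20 in preparation II and 0.27 in preparation I. Averaged over runs of different lengths, the raised scores thus lay mainly within 1 tile on either side of the top. At 2 steps the averages were still above the mean score of all tiles of these plates. At 5 steps the averages were higher than at 3 steps on both sides. They were 0.29 ± 0.69 and 0.33 ± 0.61 in preparation II, and 0.50 ± 0.70 and 0.38 ± 0.73 in preparation I (SD across runs). These rises were small beside the SD across runs and were not tested. Of the 131 top tiles found in preparation I, 69.5% were at 1 or more in preparation II, and of the 101 found in preparation II, 96.04% were so in preparation I.

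**Figure D3:**
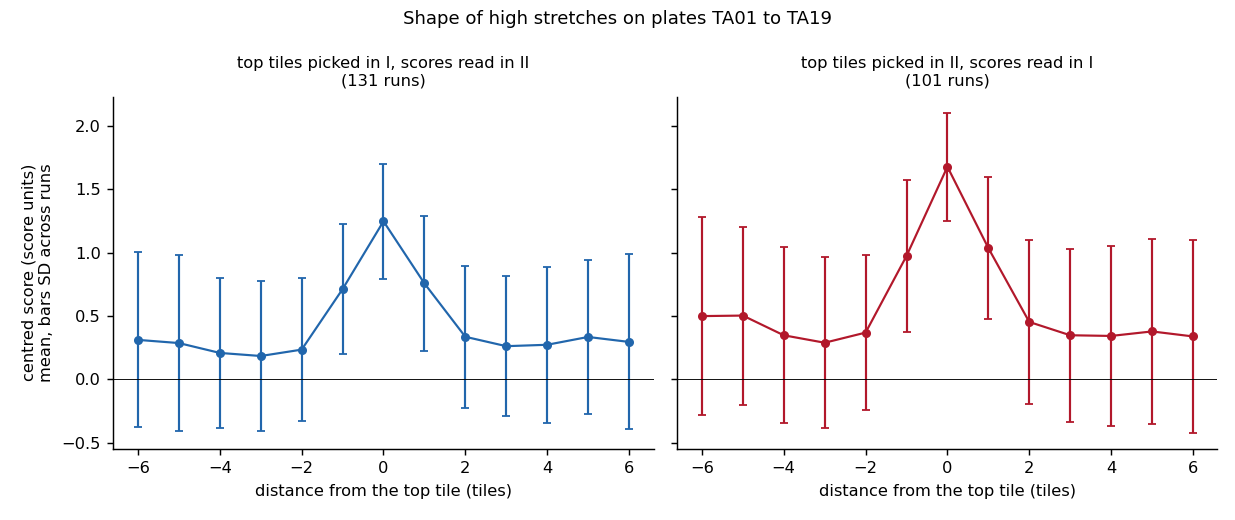
Mean centred score (points, in score units; bars, SD across runs) by distance in tiles from the top tile of a high run, with top tiles picked in 1 preparation and scores read in the other. The mean is 1.25 at the top in preparation II (left) and 1.68 in preparation I (right), and falls to between 0.18 and 0.35 at 3 tiles on either side.

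The likeness of neighbouring tiles faded within a few wells. Between a tile and the next tile r was 0.66 across 1815 pairs of mean scores, with 0.34 at 2 tiles, 0.17 at 3, 0.11 at 6 and 0.04 at 12. The other plates, pooled, gave 0.68 at 1 tile and 0.44, 0.31, 0.23 and 0.18 at the same longer distances. Single blocks differed: at these longer distances TB50 to TB99 had 0.29, 0.14, 0.05 and 0.04. The sets PD and TD had 0.60, 0.51, 0.48 and 0.44. Once the mean of each plate was subtracted, plates TA01 to TA19 had 0.64 at 1 tile, 0.30 at 2 and 0.11 at 3, against 0.60, 0.30 and 0.14 elsewhere. At 1 tile the order of the plates was thus turned. At 6 tiles the value so adjusted was 0.05 on these plates and 0.03 elsewhere, and at 12 tiles it was -0.01 on both. The gap at longer distances thus went with differences in level between plates. A tile in preparation I correlated with the next tile in preparation II with r = 0.63, and a tile in preparation II with the next tile in preparation I with r = 0.61. Across the 18 plate borders the last well and the first well of the next plate correlated with r = 0.65. These are correlations across tiles of the same arrays, which are not independent replicates.

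Low scores were fewer than high scores of the same size and stood in shorter runs. At a size of 0.5 there were 527 high tiles, in runs with a mean length of 2.72 tiles. The sides differ in number, so their run lengths do not compare equal draws. The 148 tiles at -0.5 or less (8.13% of these plates, against 11.5% of the other tiles) formed 95 runs with a mean length of 1.56 tiles, and 63 of the runs held 1 tile. The longest runs held 5 tiles. The deepest of them, TA06C03 to TA06C07, contains the lowest mean score of the whole array, at TA06C05. This tile was also the lowest in preparation II, while in preparation I the lowest tile of the array, at -1.79, lay on another plate. The scores there were 0.08 in preparation I and 0.13 in preparation II at TA06C02, and -1.15 and -1.20 at the next tile, TA06C03. They were -1.39 and -1.56 at TA06C04 and -1.66 and -1.90 at TA06C05, and returned to -0.78 and -0.54 at TA06C06. The trough is thus entered within 1 tile in both preparations and left more gradually, with means of -0.76 at TA06C07 and -0.23 at TA06C08.

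Of the 8 tiles at -1 or less, 3 belong to this trough. The pair TA18B01 and TA18B02 had means of -1.10 and -1.16. The other 3, TA17C04 with -1.17, TA11A04 with -1.09 and TA05G04 with -1.07, each stood alone at this threshold. TA17C04 follows the empty well TA17C03, so its near side is not measured, and the tile after it, TA17C05, had -0.94. All 8 were below -0.8 in both preparations, and 5 of them were at -1 or less in both.

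The preparations gave much the same profile. Across the 1820 tiles Pearson's r between preparations was 0.904 and Spearman's rho 0.871, against 0.916 and 0.879 over the other tiles. The difference, preparation I minus preparation II, had a mean of 0.06 and an SD of 0.295 across tiles, against an SD of 0.272 elsewhere. It exceeded 0.5 in size at 156 tiles (8.57%), against 7.07% of the other tiles. At least 1 preparation reached 1 at 294 tiles, and both did at 200 of them (68.0%). Preparation I had 281 tiles at 1 or more and preparation II had 213.

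Above the array's median the difference between preparations was larger at higher scores. At the 148 tiles below -0.5, mean scores were -0.67 in preparation I and -0.70 in preparation II. Their difference was 0.027 ± 0.23 (SD over the 148 tiles), and preparation I was the higher at 76 of them. Tiles with a mean score from -0.5 to 0 had averages of -0.23 (I) and -0.22 (II), a difference of -0.013 ± 0.26 (SD across 616 tiles). Tiles from 0.5 to 1 averaged 0.78 and 0.66, a difference of 0.13 ± 0.297 across 282 tiles. The 88 tiles at 1.5 or more averaged 1.92 and 1.61, a difference of 0.31 ± 0.25, and preparation I was the higher at 79 of them. Over all 1820 tiles of these plates the SD of preparation I was 1.13 times that of preparation II, against 1.09 times elsewhere. The difference was also shared by neighbours, on these plates as elsewhere. Between a tile and the next its correlation was r = 0.34 on these plates, against r = 0.32 over the other tiles. On these plates it was r = 0.30 when plate TA01 was left out.

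By the mean over a plate row, the preparations parted most at the very start of the tile set. In row A of plate TA01 all 12 tiles were higher in preparation I, by 0.50 to 1.12, with a mean of 1.11 in preparation I and 0.26 in preparation II and a difference of 0.85 ± 0.17 (SD across 12 tiles). Row B followed with means of 0.33 and -0.22, a difference of 0.55 ± 0.41, and row C with 0.48 and 0.28, a difference of 0.20 ± 0.22. From row D to row H the mean difference lay between -0.09 and 0.05. Among the 1801 plate rows of the array with at least 10 scored tiles, rows A and B of TA01 had the largest and the second largest excess of preparation I. These rows were singled out after their values were seen. The cause of this difference was not tested.

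The shape of the profile in row A was nevertheless shared. In preparation I the scores climbed through 0.68 at TA01A01 and 1.10 at TA01A04 to 1.59 at TA01A07, and declined to 0.85 at TA01A12. In preparation II they climbed through -0.44 and 0.21 to 0.57 at the same tiles, peaked at 0.84 on TA01A08, and declined to 0.12 at TA01A12. Within the row Pearson's r between the preparations was 0.89 across the 12 tiles. The offset decides which tiles count as high: 7 tiles of the row were at 1 or more in preparation I, and none in preparation II. Without plate TA01 the correlation between preparations over the remaining 1724 tiles was 0.912, and 7.77% of them differed by more than 0.5, against 22.9% on TA01.

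**Figure D4:**
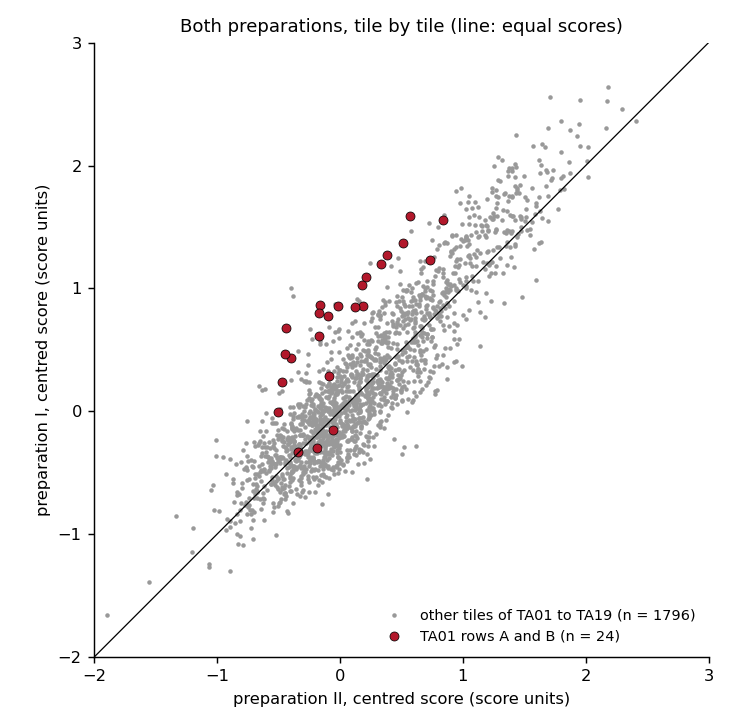
Centred score of preparation I (vertical axis) against preparation II (horizontal axis), in score units, for the 1820 tiles of plates TA01 to TA19. Tiles of rows A and B of plate TA01 (red, n = 24) lie mostly above the line of equal scores, and 19 of them by more than 0.5.

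Large disagreements at 1 tile or a few tiles were found elsewhere too. The largest difference was at TA12B02, with 1.004 in preparation I and -0.40 in preparation II, followed by its neighbour TA12B03, with 0.94 and -0.38. The tile before them, TA12B01, differed by 0.72 in the same direction. The next tile, TA12B04, had a difference of -0.23, so the disagreement covered neighbouring tiles and ended sharply there. The third largest was TA01A01. In the other direction TA10A12 had -0.28 in preparation I and 0.62 in preparation II, TA14A07 had -0.35 and 0.50, and TA04B02 had -0.29 and 0.52. None of the tiles before or after these 3 differed by more than 0.25 in the same direction. The tile after TA10A12, TA10B01, differed by 0.81 in the other direction. The 6 tiles with the largest differences had mean scores between 0.08 and 0.30, so none of them counts as high or low.

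**Figure D5:**
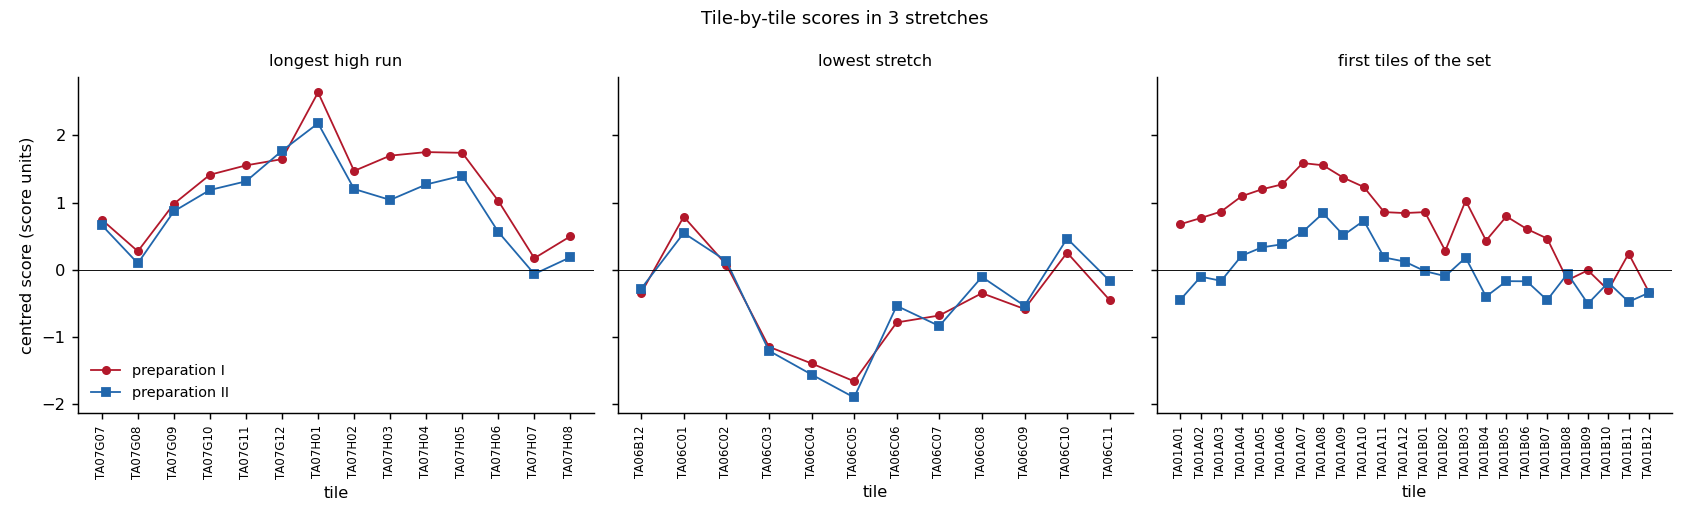
Centred scores (score units) tile by tile in preparation I (red) and preparation II (blue) over the longest high run around TA07H01, the lowest stretch around TA06C05, and rows A and B of plate TA01. In row A of TA01 preparation I lies above preparation II by 0.85 on average.

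The end of the stretch was gradual rather than a step between neighbouring wells. The last 6 tiles of TA19 had mean scores of 0.16, -0.10, 0.30, 1.17, 0.39 and 0.66, from TA19H07 to TA19H12. The first 6 scored tiles of TA20 had 0.31, 1.196, 0.56, 0.86, -0.25 and -0.19, from TA20A01 to TA20A07, with TA20A02 unscored. High tiles thus stood on both sides of the border. The median was 0.09 over the first 47 scored tiles of TA19 and -0.10 over its last 48, and on TA20 it was -0.22 over the first 48 and -0.26 over the last 48. The plates after it were lower: the median of TA20 to TA28 together was -0.36, and 4.10% of their 804 tiles were at 1 or more, and TA29 to TA36 had -0.12, with 7.62% of 748. These values defined the border and are given without a test.

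Even-numbered plates tended to have lower medians than the odd-numbered plates after them. Over the 9 pairs from TA02 and TA03 to TA18 and TA19, the even plate minus the odd plate averaged -0.20, and the even plate was the higher in 1 pair. Over 103 such pairs on the other plates the average ran the other way, at 0.10, with the even plate the higher in 73. The pairs were compared after plate medians had been seen, and the difference was not tested.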

How the data were processed

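The deposited table holds 1 signed score per feature and array. The authors' steps behind these scores (background correction, normalization, log base, centring, direction) are not given in the sources used here. Columns of a dye-swap pair were averaged to 1 value per preparation (n = 2), and each preparation was centred on its median over all 21716 scored tiles. The 19 plates and all lists and rules were chosen with earlier results of these data known. limma 3.58.1 (R 4.3.3; lmFit and eBayes, Benjamini-Hochberg) tested the mean score against 0 over all tiles and was tested on simulated data. Counts, runs and correlations were computed with numpy 2.4.6, pandas 2.3.3 and scipy 1.17.1. An unscored well ends a run. p-values rest only on the spread between 2 preparations, shared by all tiles, which may be technical. A tile's own disagreement does not enter its p-value. Calls therefore include tiles with opposite signs in the preparations, such as TA01A03 with 0.87 (I) and -0.16 (II). Named tiles are the 5 highest and 5 lowest called with the same sign in both preparations, the 3 longest high runs, the longest low run, the 3 largest differences each way, 6 tiles on either side of the border, and the plates with the 3 highest and 3 lowest medians. The other tiles at -1 or less, the longest gap, TA04 and TA07 were named after their values were seen. Spot brightness was not used here, so weak spots could not be filtered, and the number of arrays limits the precision. No test between preparations was planned, because 1 value per preparation leaves no residual. Alternatives changed centring, scaling, variance model, thresholds, sign, order and the plates or preparations used.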

Additional observations from a re-analysis of the deposited data

How the results depend on the processing

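The 10 named tiles kept their direction and their side of the limma threshold in all 60 values with other centring, scaling, variance models or thresholds; as extremes of the same scores they give no separate support. Turned signs, which the unknown direction allows, made them -2.41 (TA07H01), -2.39 (TA01D07), -2.38 (TA10H09), -2.35 (TA04D07), -2.24 (TA03H09), 1.78 (TA06C05), 1.48 (TA06C04), 1.17 (TA06C03), 1.17 (TA17C04) and 1.16 (TA18B02), and exchanged the counts to 332 higher and 683 lower by limma and to 8 tiles at 1 or more and 245 at -1 or less. The limma counts became 51 higher and 1480 lower without centring and 305 and 23 with a minimum of 0.5 (treat), and the lower count 151 with the mode as zero. A size of 0.5 gave 527 and 148 tiles. Tiles at -1 or less numbered 5 with the mode as zero, 5 when both preparations had to reach -1, and 5 without plate TA06. The median of 0.105 became 0.255 with the mode as zero, 0.125 on fully scored plates, -0.105 with turned signs, 0.0927 without TA01, and 0.107 to 0.121 in a single preparation. The correlation of neighbours was 0.64 to 0.651 with 1 preparation left out, 0.0677 in column order, 0.64 with plate means subtracted, and 0.626 and 0.605 across preparations. Runs averaged 2.72 tiles at a size of 0.5, 2.34 with the mode as zero and 2.11 to 2.15 in a single preparation. The TA15 median was 0.426 to 0.472 in a single preparation and its mean 0.566; the mean of TA08 was -0.142. Agreement was 0.851 without 5% of tiles at each end, 0.871 by Spearman's rho and 0.912 without TA01. The mean difference between preparations became 0.0547 without TA01 and 0.0758 with equal scaling. Settings without plate TA01 or TA06, those for the named tiles, and equal scaling of that difference, were chosen after seeing the data. No paired analysis was possible because all arrays form 1 group. With 1 preparation left out no limma test has a residual.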
